A study of Mus musculus with 6 samples.

Results

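The cells described here are liver T cells that carry the invariant T cell receptor (TCR) α chain, divided by the V segment of their TCR β chain. In the 2 wild-type (WT) libraries, a barcode was taken as iNKT-type when a TCR α (TRA) contig joined TRAV11 to TRAJ18 and exactly 1 TCR β (TRB) contig was present. Of 778 such barcodes, 553 used a TRBV13 segment and 132 used TRBV29, so the comparison covers 685 cells, of 8779 barcodes with a TCR contig in the whole series. The library of WT mice on high-fat diet (WT HFD, the HFD library from here on) held 217 TRBV13 and 60 TRBV29 cells, and the WT HFD+HDCA library (the HDCA library), from a diet to which a bile acid was added, held 336 and 72. Gene counts of kept cells were present for 205, 57, 307 and 68 of them in the same order. 1 barcode of the TRBV13 cells occurred in both libraries and none of the TRBV29 cells did.

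Both groups of mice were WT and had eaten a 60% high-fat diet (HFD) for 12 weeks, and in 1 of them the diet also contained 0.25% hyodeoxycholic acid (HDCA), a bile acid. CD45-positive liver mononuclear cells were sorted, although 1 protocol text names CD4-positive lymphocytes, and gene expression and TCR sequences were read from single cells. Each diet had 1 RNA library and 1 TCR library, and how many mice each one pools is not stated. The other group, Jα18-/- mice (iNKT KO) fed HDCA as well, held 1 barcode with the invariant rearrangement and serves only as a source of other αβ T cells. The 2 WT libraries are therefore the only replicates of a TRBV13 to TRBV29 comparison, and they differ in diet. The p-values of genes rest on how far the TRBV29 to TRBV13 ratio differed between these 2 libraries. That spread is in large part borrowed from all genes tested, since 2 libraries give little of it for a single gene.

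The invariant TCR of natural killer T cells recognises lipids held by CD1d, a molecule related to MHC class I. Its α chain is nearly fixed, and in mice it pairs mainly with β chains of the Vβ8 family (TRBV13), Vβ7 (TRBV29) or Vβ2 (TRBV1). The α chain makes most of the contacts with lipid and CD1d, the CDR2 loop of the β chain touches CD1d through tyrosine residues, and the CDR3 loop of the β chain varies from clone to clone. In the thymus, iNKT cells mature into type 1 cells (T-bet, interferon-γ), type 2 cells (GATA3, interleukin 4) and type 17 cells (interleukin 17). Type 1 cells are the usual form in mouse liver.

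The germline loops of the β chain are shown because they are what separates the TRBV13 and TRBV29 receptors before any CDR3 is added. Capitals mark each base that differs from TRBV13-2 at the same position, read 5′ to 3′ from the deposited contigs.
TRBV13-2 CDR1: aataaccacaacaac
TRBV13-1 CDR1: aataGccacaacTac
TRBV13-3 CDR1: aataaccaTGacTaT
TRBV29 CDR1: aTGaGccaTGaAaCA
TRBV13-2 CDR2: tcatatggtgctggcagc
TRBV13-1 CDR2: tcatatggtgctggcaAc
TRBV13-3 CDR2: tcatatgTCgctgAcagc
TRBV29 CDR2: tcataCgAtgTtgATagT

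TRBV29 differed from TRBV13-2 at 8 of 15 bases of CDR1 and at 6 of 18 bases of CDR2, against at most 4 and 3 for the other TRBV13 segments. The CDR2 of each segment encoded 1 tyrosine. The TRBV29 loops encoded 1 acidic residue in CDR1 and 2 in CDR2, whereas the TRBV13-2 loops encoded 0. The loops shown were found in 405 of 406 TRBV13-2 cells and in all 107 TRBV13-1, 40 TRBV13-3 and 132 TRBV29 cells.

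The α chain CDR3 is shown because it is the part that both classes share. The 4 nucleotide forms below encode the same amino acids and differ at base 12 alone, which is in capitals.
Alpha form 1: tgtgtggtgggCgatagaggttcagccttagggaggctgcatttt
Alpha form 2: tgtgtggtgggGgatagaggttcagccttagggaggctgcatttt
Alpha form 3: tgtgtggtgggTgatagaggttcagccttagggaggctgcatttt
Alpha form 4: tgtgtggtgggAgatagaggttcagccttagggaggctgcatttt

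Form 1 was found in 40.1% of TRBV13 cells in the HFD library and 39.0% in the HDCA library, against 30.0% and 34.7% of TRBV29 cells. Form 4 was found in 12.5% of TRBV13 and 18.2% of TRBV29 cells of both libraries together. The 4 forms together made up 92.2% of TRBV13 and 88.6% of TRBV29 cells. Counted by amino acids, the commonest α CDR3 was carried by 93.5% of TRBV13 cells in the HFD library (95% exact Clopper-Pearson interval 89.4% to 96.4%) and 94.9% in the HDCA library (92.0% to 97.0%). TRBV29 cells carried it in 86.7% (75.4% to 94.1%) and 90.3% (81.0% to 96.0%). The share was lower with TRBV29 in both libraries, and the intervals, which cover counting error only, overlapped.

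TRBV13 was the main β segment of these cells in both libraries. Its share was 68.5% in the HFD library (63.0% to 73.5%) and 72.9% in the HDCA library (68.6% to 76.9%). The share of TRBV29 was 18.9% (14.8% to 23.7%) and 15.6% (12.4% to 19.3%). The intervals of the 2 libraries, which cover counting error only, overlapped for both segments. With 1 library per diet, a difference between the diets could not be tested. Over both libraries, TRBV13-2 alone made up 52.2% of iNKT-type cells, TRBV13-1 13.8% and TRBV13-3 5.14%. Of 406 TRBV13-2 contigs, 391 were deposited under the joint name TRBV12-2+TRBV13-2 and are counted as TRBV13-2 here. Among other αβ T cells, which have both chains and no invariant contig, the share with TRBV13 was 30.2% (HFD library), 23.0% (HDCA library) and 33.2% (iNKT KO). Their share with TRBV29 was 3.85%, 4.05% and 4.29%.

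CDR3 β sequences were almost all private to one cell. The sequence found in most cells of each class and library is printed here to give the make-up of the loop. Lower case marks the start shared with the V segment and the end shared with the J segment, and capitals mark the bases between them.
TRBV13-2 with TRBJ2-5, WT HFD, 4 cells: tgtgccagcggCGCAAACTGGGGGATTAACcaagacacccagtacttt
TRBV13-1 with TRBJ1-2, WT HFD+HDCA, 4 cells: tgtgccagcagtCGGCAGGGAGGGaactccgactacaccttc
TRBV29 with TRBJ2-5, WT HFD, 2 cells: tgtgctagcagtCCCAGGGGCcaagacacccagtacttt
TRBV29 with TRBJ2-1, WT HFD+HDCA, 2 cells: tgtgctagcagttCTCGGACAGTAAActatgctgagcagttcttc

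A clonotype (cells with identical α and β CDR3 nucleotides) held at most 4 cells among TRBV13 and at most 2 among TRBV29. TRBV13 cells formed 529 clonotypes and TRBV29 cells 129. Clonotypes of 2 or more cells held 43 of 553 TRBV13 cells and 6 of 132 TRBV29 cells. No nucleotide CDR3 β occurred in both libraries in either class. By amino acids, 3 TRBV13 and 1 TRBV29 sequences occurred in both. Among other αβ T cells with TRBV13, 1 clonotype of the HFD library reached 82 cells, so J segments and lengths are given over clonotypes, each counted once per library.

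CDR3 β length did not differ between the classes beyond its spread. TRBV13 clonotypes averaged 14.21 ± 1.57 amino acids (SD, n = 208 clonotypes) in the HFD library and 14.29 ± 1.48 (n = 321) in the HDCA library. TRBV29 clonotypes averaged 14.22 ± 1.63 (n = 58) and 14.21 ± 1.49 (n = 71). The gap between the class means in each library was smaller than the gap between the 2 libraries within TRBV13. Lengths ran from 9 to 19 amino acids with TRBV13 and from 9 to 18 with TRBV29. In the HFD library, 15 amino acids was the length of 12.1% of TRBV29 and 23.1% of TRBV13 clonotypes, a dip that was not seen in the HDCA library (28.2% and 29.9%). Other αβ T cells of the same segments averaged 13.96 ± 1.50 and 13.89 ± 1.47 with TRBV13 and 13.75 ± 1.55 and 13.85 ± 1.56 with TRBV29, in the HFD and HDCA libraries in that order.

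**Figure D1:**
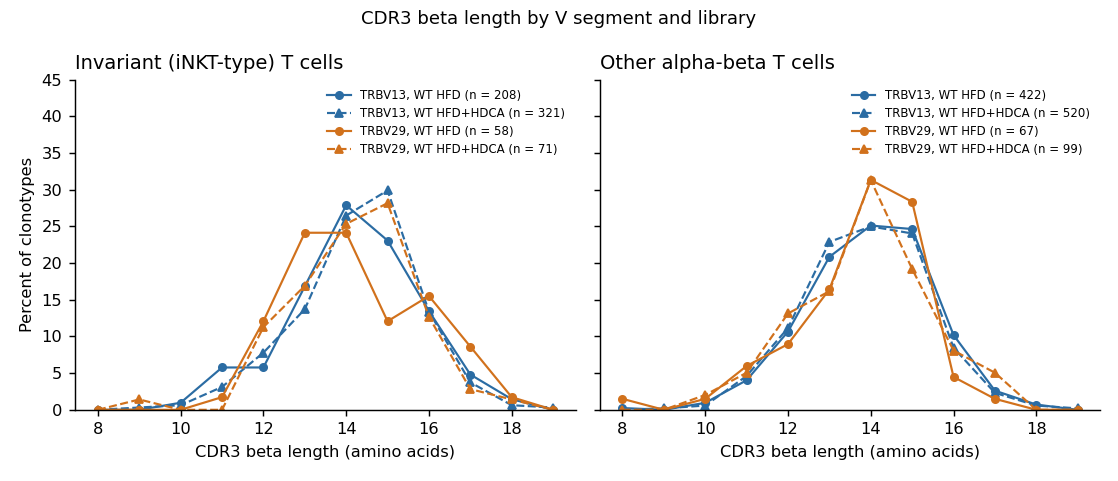
Percent of clonotypes (vertical axis) by CDR3 β length in amino acids (horizontal axis) for TRBV13 and TRBV29 in each WT library, with iNKT-type cells on the left and other αβ T cells on the right. Curves of both classes peak between 13 and 15 amino acids, and the TRBV29 curve of WT HFD, from 58 clonotypes, drops to 12.1% at 15.

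The parts of the loop were measured from the strings shared by clonotypes of a segment, which are 14 bases for each TRBV13 segment and 13 for TRBV29. The V part can therefore be at most 14 or 13 bases by the choice of segment, and its values are a description. The start shared with the V segment was longer with TRBV13, at 13.23 and 13.29 bases on average, than with TRBV29, at 12.24 and 11.87. The end shared with the J segment was shorter with TRBV13, at 17.22 and 17.36 bases, than with TRBV29, at 18.09 and 18.01. The J part is capped by the string of its TRBJ segment, from 15 bases for TRBJ2-7 to 22 for TRBJ1-3. TRBJ shares were not equal, with TRBJ2-7 in 21.0% of TRBV13 and 14.0% of TRBV29 clonotypes, pooled. The J values are therefore a description as well, and how far they follow TRBJ use was not tested. The bases between the V and J parts averaged 12.18 and 12.23 with TRBV13 and 12.34 and 12.75 with TRBV29, with an SD over clonotypes of 4.07 and 3.77 in the pooled classes. In other αβ T cells the V part was also longer with TRBV13 (13.16 and 13.06 bases) than with TRBV29 (12.10 and 11.96), while the J parts were 17.36 and 17.45 against 17.55 and 17.23.

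Residue 4 and part of residue 5 of CDR3 β lie in the V-encoded start, so they follow from the segment that defined the classes and are given as a description. At residue 4, counted from the conserved cysteine, glycine was encoded by 73.6% and 72.6% of TRBV13 clonotypes in the HFD and HDCA libraries, and by 0% and 2.82% of TRBV29 clonotypes. The count of 0 of 58 allows a share of up to 5.17%. Serine stood there in 84.5% and 71.8% of TRBV29 clonotypes. The glycine belonged to TRBV13-2 (98.2% of its clonotypes), and TRBV13-1 had serine in 84.8%. At residue 5, aspartate was encoded by 54.3% and 55.1% of TRBV13 and by 5.17% and 1.41% of TRBV29 clonotypes, and leucine by 0% and 0.62% against 44.8% and 35.2%. Other αβ T cells had the same order, with aspartate at 52.1% and 53.3% for TRBV13 and leucine at 43.3% and 33.3% for TRBV29.

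Shares of some TRBJ segments differed between the classes in the same direction in both libraries, without a test. TRBJ1-4 was found in 2.88% of TRBV13 clonotypes in the HFD library and 2.49% in the HDCA library, against 8.62% and 11.3% of TRBV29 clonotypes. Pooled, this was 14 of 529 (2.65%, interval 1.45% to 4.40%) against 13 of 129 (10.1%, 5.48% to 16.6%), and the intervals did not overlap. Within the HFD library they did (1.07% to 6.17% against 2.86% to 19.0%). Within the HDCA library they were narrowly apart (1.08% to 4.85% against 4.99% to 21.0%). Pooled intervals of every other TRBJ segment overlapped, and no allowance was made for the number of segments. Among other αβ T cells TRBJ1-4 made up 7.75% of TRBV13 and 9.64% of TRBV29 clonotypes in WT and 5.74% and 7.25% in iNKT KO mice, and this difference from iNKT-type cells was not tested.

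TRBJ2-3 was also higher with TRBV29 in both libraries, at 17.2% and 8.45% against 5.29% and 4.98%. Its pooled intervals were 7.26% to 19.4% and 3.39% to 7.34%, which overlapped by a narrow margin. In other αβ T cells of the WT libraries it made up 4.82% with TRBV29 and 10.9% with TRBV13, and in iNKT KO mice 7.25% and 5.96%, so the order was not the same in all mice. TRBJ2-7 made up 23.1% and 19.6% of TRBV13 and 15.5% and 12.7% of TRBV29 clonotypes. TRBJ1-1 made up 13.9% and 15.3% against 8.62% and 9.86%, and TRBJ1-2 10.6% in both libraries against 6.90% and 1.41%. Both were lower with TRBV29 in each library, but the pooled intervals overlapped (11.8% to 18.1% against 4.90% to 15.7% for TRBJ1-1, 8.10% to 13.5% against 1.27% to 8.81% for TRBJ1-2). The TRBJ1 cluster as a whole was used by 42.7% of TRBV13 and 42.6% of TRBV29 clonotypes. No test of these shares across libraries was made.

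**Figure D2:**
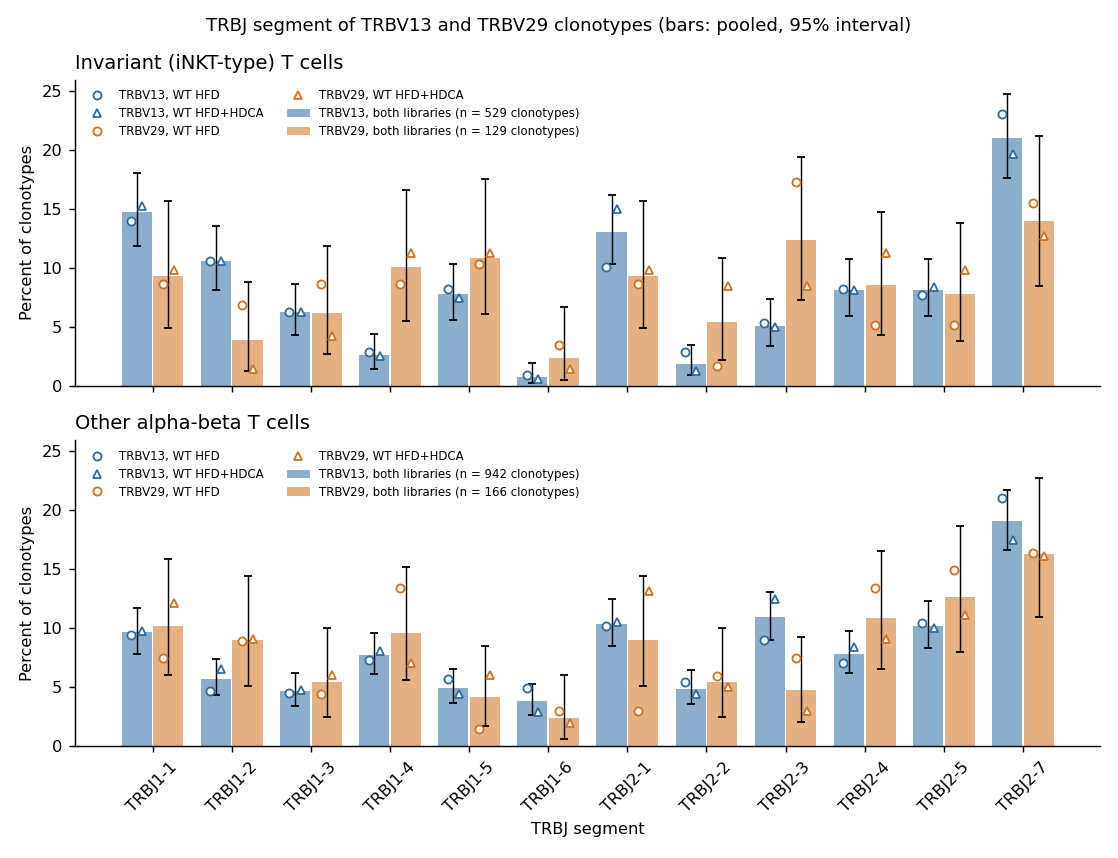
Percent of clonotypes (vertical axis) that use each TRBJ segment (horizontal axis), for iNKT-type cells above and other αβ T cells below. Bars are both WT libraries pooled with exact 95% intervals, and open symbols are the single libraries. For TRBJ1-4 in iNKT-type cells the pooled TRBV13 bar stands at 2.65% and the TRBV29 bar at 10.1%.

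TRBD2, 1 of the D segments that can join V to J, was annotated in no TRBV29 clonotype. The deposited annotation named TRBD2 in 11.1% and 9.66% of TRBV13 clonotypes and in 0 of 129 TRBV29 clonotypes, which allows an annotated share of up to 2.33%. The string GGGACTG, part of TRBD2 and not of TRBD1, stood on the coding strand of the CDR3 in 7.69% and 8.72% of TRBV13 and 3.45% and 1.41% of TRBV29 clonotypes. Some TRBV29 clonotypes thus held the string without a TRBD2 annotation, so the limit does not bound TRBD2 use. The matching string of TRBD1, GGGACAG, stood in 14.9% and 14.0% against 19.0% and 25.4%. Over other αβ T cells of both WT libraries, the TRBD2 string stood in 5.84% of TRBV13 and 3.61% of TRBV29 clonotypes, and the TRBD1 string in 13.5% and 13.3%. Other αβ T cells were annotated with TRBD2 in 3.61% of 166 TRBV29 and 8.17% of 942 TRBV13 clonotypes, and in iNKT KO mice the values were 0 of 69 and 9.93% of 453.

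TRB contigs of TRBV29 cells carried fewer unique molecular identifiers (UMIs), the tags that count RNA molecules. The median was 16 UMIs per TRBV13 cell in the HFD library and 15 in the HDCA library, with quartiles of 10 to 22 and 10 to 21. TRBV29 cells had a median of 10 and 9, with quartiles of 6 to 16.25 and 6.75 to 13. Both TRBV29 medians lay below both TRBV13 medians, although the quartile ranges overlapped. TRA contigs of the same cells had medians of 4 and 4 with TRBV13 and 5 and 4.5 with TRBV29. Among other αβ T cells the TRB medians were 12 and 12 with TRBV13 and 10 and 11 with TRBV29, a smaller gap in the same direction.

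**Figure D3:**
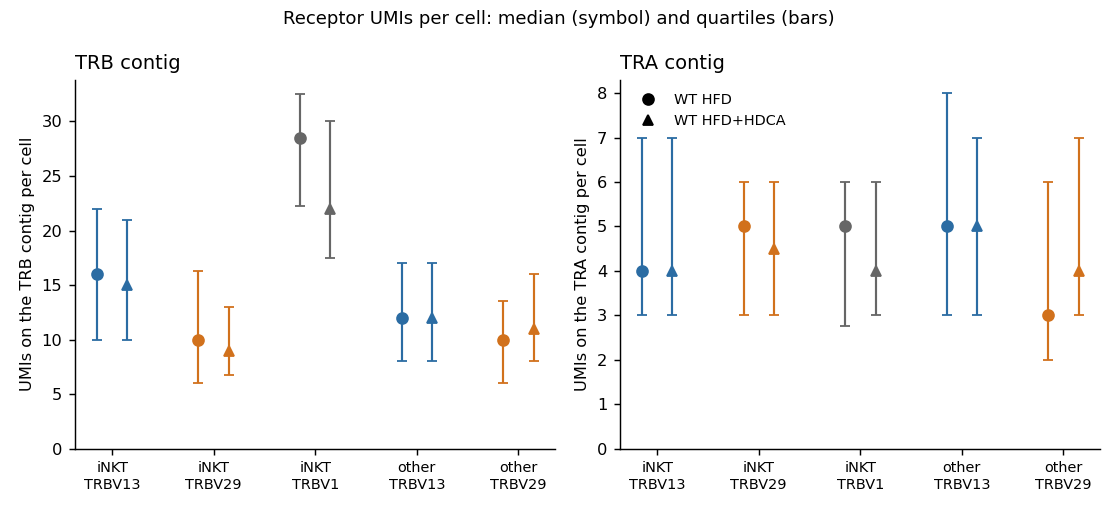
UMIs on the TRB contig (left) and TRA contig (right) per cell, by β segment in iNKT-type cells and other αβ T cells. Symbols are medians and bars the quartiles, with circles for WT HFD and triangles for WT HFD+HDCA. The TRBV29 medians of 10 and 9 TRB UMIs lie below the TRBV13 medians of 16 and 15, and the TRA medians lie between 3 and 5 throughout.

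The RNA libraries carried the segments the contigs named. Trbv29 stood at 1313 and 1107 CPM (UMIs of the gene per 1000000 UMIs of the sum) in the summed TRBV29 cells of the HFD and HDCA libraries, and at 0 and 1.25 CPM in the TRBV13 cells. The Trbv13 genes together stood at 1809 and 1849 CPM in TRBV13 cells. The constant genes Trbc1 and Trbc2 summed to 548 and 528 CPM in TRBV13 cells and 650 and 452 CPM in TRBV29 cells, higher in one library and lower in the other. UMIs on the cells' own V segment per UMI on a constant gene were 3.30 and 3.50 with TRBV13 and 2.02 and 2.45 with TRBV29. In other αβ T cells this ratio was 2.19 and 3.37 with TRBV13 and 2.17 and 2.15 with TRBV29. In the HFD library the ratio of other αβ T cells was thus nearly equal for both segments.

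For the comparison of all genes, UMIs were summed over the kept cells of each class and library. The sums held 1690568 UMIs for TRBV13 and 440193 for TRBV29 in the HFD library, and 2393213 and 577288 in the HDCA library. Median UMIs per cell were 7897, 6657, 7104 and 7428.5. The label iNKT was compared with marker genes. All 9 genes of the identity list were present in every sum, but also in every sum of other αβ T cells, so their presence does not separate the 2. Levels of Zbtb16 and Cd8a did. Zbtb16 encodes PLZF, a transcription factor of innate-like T cells. It stood at 125 to 166 CPM, against 3.61 to 14.2 CPM in other αβ T cells. Cd8a stood at 0 to 6.69 CPM against 270.2 to 400.2 CPM. The 2 classes differed in few genes. Of 8809 genes with at least 40 UMIs, 8 passed an adjusted p of 0.05 in edgeR's quasi-likelihood test with the library as a block (0.0908% of genes tested), 4 higher and 4 lower with TRBV29. For 3 of the 8, a single cell held at least 50% of all UMIs, and 7 of the 8 went the same way in both libraries.

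Gm20400 (ENSMUSG00000092500) had the lowest adjusted p of the genes whose UMIs were spread over many cells. It is a predicted gene model that the rule for named genes leaves out, and it was chosen after its values were seen. It stood at 67.4 CPM in TRBV13 and 209 CPM in TRBV29 cells of the HFD library, and at 30.1 and 184 CPM in the HDCA library. Both TRBV29 values lay above both TRBV13 values, as they did for 15.5% of all genes tested. UMIs were spread over 32 of 57 and 41 of 68 TRBV29 cells, against 34 of 205 and 38 of 307 TRBV13 cells. The log2 ratio was 2.10 ± 0.23 (SE, edgeR adjusted p = 0.000626), and without the library block the edgeR adjusted p was 0.206. Within the libraries the ratio was 3.10 (95% exact conditional interval 2.33 to 4.12) and 6.10 (4.48 to 8.35).

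The same gene followed TRBV29 in T cells without the invariant chain. Other αβ T cells had 113 CPM with TRBV13 and 488 CPM with TRBV29 in the HFD library, and 55.7 and 249 CPM in the HDCA library (log2 2.19 ± 0.14, edgeR adjusted p = 2.43e-07). The difference between the 2 cell types in this ratio was -0.10 ± 0.26 on the log2 scale and did not pass edgeR's test. Over all T cells with 1 TRB contig, ordered by segment, Gm20400 was highest with TRBV26 (684 and 390.3 CPM), then TRBV29 (364 and 222 CPM), then TRBV31 (266 and 161 CPM) of 19 segments in both libraries. TRBV20, whose segment comes before these in the locus, had 116 and 97.8 CPM. In the order of the RefSeq GRCm38.p6 table, Trbv26, Trbv29 and Trbv31 are segments 30, 33 and 35 of 35, so they sit at one end. A second gene model, Gm20186, also chosen after its values were seen, stood at 130 and 214 CPM in the HFD library and 107 and 194 CPM in the HDCA library with TRBV13 and TRBV29 (log2 0.80 ± 0.17, edgeR adjusted p = 0.192). It did not pass the test in iNKT-type cells, and passed it in other αβ T cells (log2 1.03 ± 0.14, edgeR adjusted p = 0.00164). Barcodes with no such TCR had 30.6 and 15.9 CPM of Gm20400. The place of these 2 models in the genome was not used here, and reads they could share with other genes were not examined.

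**Figure D4:**
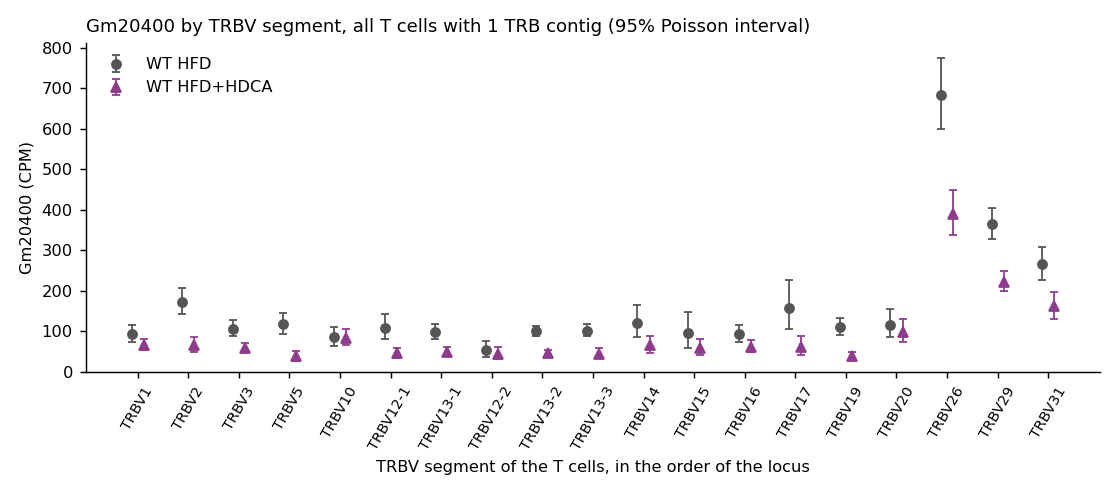
Level of Gm20400 in CPM (vertical axis) in all T cells with exactly 1 TRB contig, by TRBV segment in locus order (horizontal axis, segments with at least 20 cells), with 95% Poisson intervals. In both libraries TRBV26, TRBV29 and TRBV31 stand above the other segments, with 364 and 222 CPM for TRBV29.

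Gzma, which encodes granzyme A, fell with TRBV29, on the strength of the HDCA library. TRBV13 cells had 18.9 CPM in the HFD library and 282 CPM in the HDCA library, and TRBV29 cells had 11.4 and 55.4 CPM. The groups overlapped, since the TRBV13 sum of the HFD library lay below the TRBV29 sum of the HDCA library. The log2 ratio was -2.11 ± 0.28 (edgeR adjusted p = 0.00308). Within the HFD library the ratio was 0.60 (0.18 to 1.55), not distinguishable from 1 at this depth, and within the HDCA library it was 0.20 (0.13 to 0.28). In the HDCA library 1 cell held 33.1% of the 676 UMIs of TRBV13, and TRBV13-3 stood at 1289 CPM, TRBV13-1 at 442 CPM and TRBV13-2 at 125 CPM. Against TRBV13-2 alone the log2 ratio was -1.07 with an edgeR adjusted p of 0.106. The 4 NK cell markers summed to 51.4 CPM in that TRBV13 sum and to 1.18 to 2.27 CPM in the other 3, where 2 or 3 of the 4 were at 0; their part in the result was not tested.

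The other called genes rested on few cells. Cd74, the invariant chain of MHC class II, stood at 235 and 103 CPM with TRBV13 and at 402 and 196 CPM with TRBV29 (log2 0.84 ± 0.15, edgeR adjusted p = 0.0447). Cd79a, a part of the B cell receptor, stood at 28.4 and 12.5 CPM against 114 and 27.7 CPM (log2 1.68 ± 0.30, edgeR adjusted p = 0.0447). In the TRBV29 sums 1 cell held 94.9% and 78.8% of the Cd74 UMIs and 98.0% and 93.8% of the Cd79a UMIs. Without the cell richest in the gene in each sum, the log2 ratios turned to -0.95 and -1.11. The 6 B cell markers summed to 235 and 193 CPM with TRBV13 and 413 and 175 CPM with TRBV29, with none at 0 in any sum. Ube2c, a gene of mitosis, had 37 and 131 UMIs with TRBV13 and 0 and 5 with TRBV29 (edgeR adjusted p = 0.0380), from 3, 14, 0 and 2 cells.

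The remaining calls were Ccl1, a chemokine, and 2 immunoglobulin light chain segments. Ccl1 had 2 and 177 UMIs with TRBV13 and none with TRBV29, and 1 cell of the HDCA library held 98.3% of the 177. Igkv12-89 had 40 UMIs, all from 1 TRBV29 cell of the HFD library. Igkv9-120 had 48 and 43 UMIs with TRBV13, of which 1 cell in each library held 97.9% and 95.3%.

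Of the genes that mark iNKT subsets, 1 passed the test. Of the type 1 list, 19 of 19 members were measured, 9 were higher and 10 lower with TRBV29, and Gzma alone passed the test. The median log2 ratio of the list was -0.01, beside -0.00065 over all genes tested. Tbx21, which encodes T-bet, stood at 267 and 251 CPM with TRBV13 and 252 and 236 CPM with TRBV29 (log2 -0.08 ± 0.14). Ifng stood at 243 and 221 CPM against 216 and 227 CPM (log2 -0.06 ± 0.15), and its values overlapped. Klrb1c, the NK1.1 receptor, stood at 204 and 218 CPM against 216 and 241 CPM. The most abundant members, Ccl5, Nkg7, Id2 and Il2rb, had log2 ratios between -0.11 and 0.12, each with an SE of at most 0.10.

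Of the type 2 list, 12 of 15 members were measured, 3 were higher and 9 lower, none passed the test, and the median was -0.18. Zbtb16 stood at 139 and 152 CPM with TRBV13 and at 166 and 125 CPM with TRBV29, and Gata3 at 112 and 86.5 CPM against 93.1 and 95.3 CPM. Il4 stood at 101 and 108 CPM against 123 and 53.7 CPM, so its TRBV29 values lay on both sides of the TRBV13 values. Plac8 went the same way as Il4, with 85.8 and 204 CPM against 139 and 91.8 CPM. Il13 had 1 UMI in all 4 sums. Of the 16 type 17 genes, 6 were measured, 3 were higher and 3 lower, and none passed the test. Tmem176b stood at 171 and 152 CPM with TRBV13 and at 239 and 129.9 CPM with TRBV29, overlapping. The other 10 had too few UMIs for the test, among them Il23r with 4 UMIs, Ccr6 with 6 and Il17a with 0, where 0 over the pooled TRBV29 cells allows up to 2.95 CPM. Of the coreceptors, Cd4 stood at 29.6 and 39.3 CPM against 36.3 and 48.5 CPM, and Cd8a had 7 and 16 UMIs with TRBV13 and 0 with TRBV29.

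**Figure D5:**
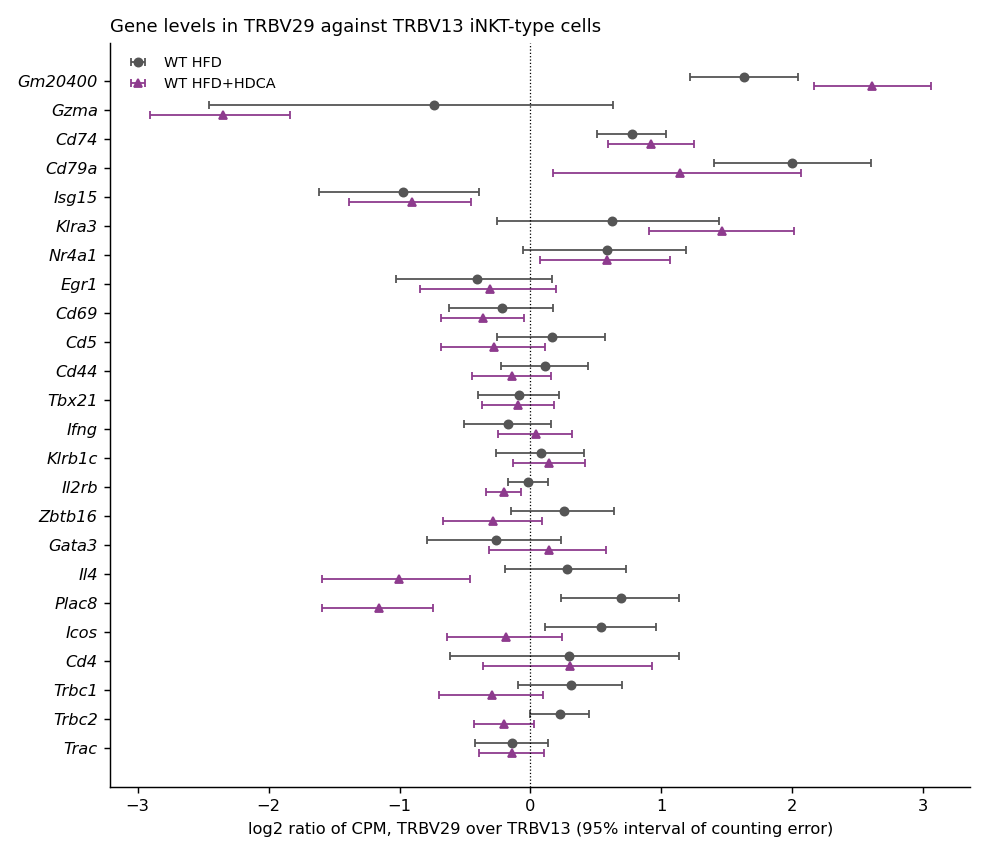
Log2 ratio of CPM in TRBV29 over TRBV13 iNKT-type cells (horizontal axis) for named genes, within each WT library, with 95% exact conditional intervals that cover counting error only. Gm20400 lies above 0 in both libraries, Tbx21, Ifng, Klrb1c and Trac have intervals that span 0 in both, and Plac8 lies above 0 in WT HFD and below 0 in WT HFD+HDCA.

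Genes that answer a TCR signal did not move together. Of 18, 13 were measured, 8 higher and 5 lower, none passed the test, and the median log2 ratio was 0.10. Nr4a1, an immediate early gene of TCR signalling, stood at 48.5 and 55.6 CPM with TRBV13 and at 72.7 and 83.1 CPM with TRBV29. Its ratio was 1.5 in each library (intervals 0.96 to 2.28 and 1.05 to 2.10), and it did not pass the test over all genes (log2 0.59 ± 0.22, edgeR unadjusted p = 0.0160). Both TRBV29 values lay above both TRBV13 values, which held for 15.5% of all genes tested. Egr1, another early gene, stood at 90.5 and 83.6 CPM against 68.2 and 67.6 CPM, in the opposite direction. Cd69 stood at 174 and 220.2 CPM against 149.9 and 171 CPM. Cd5, whose level follows TCR signal strength in developing T cells, stood at 134 and 137 CPM against 149.9 and 113 CPM, overlapping. In the HFD library 1 TRBV29 cell held 16 of 32 Nr4a1 UMIs, and without the richest cell of each sum the log2 ratio was 0.14.

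None of the interferon-stimulated genes passed the test. Of 12 members 11 were measured, and 10 had a log2 ratio below 0 in the fit. In the HDCA library all 11 were lower with TRBV29, but in the HFD library 4 were, the same 4 that were lower in both (24.3% of all genes were). The summed level was 1292 CPM with TRBV13 and 1395 CPM with TRBV29 in the HFD library, and 1566 and 1133 CPM in the HDCA library, in opposite directions. Isg15 stood at 121 and 146 CPM with TRBV13 and at 61.3 and 78.0 CPM with TRBV29, with no overlap (log2 -0.93 ± 0.20, edgeR adjusted p = 0.204). Both TRBV29 sums lay below both TRBV13 sums for 16.5% of all genes tested. Ifit3 stood at 32.5 and 34.7 CPM against 11.4 and 3.46 CPM (log2 -2.27 ± 0.48, edgeR adjusted p = 0.204), from 5 and 2 UMIs in TRBV29 cells. Ifi27l2a, an abundant member, had a log2 ratio of -0.08 ± 0.14. An unadjusted p under 0.05 was reached by 5 of the 11 members, against 3.01% of all genes. The list's median was -0.16, and it was 0.023 without the HDCA library and -0.78 without the HFD library.

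None of the receptors of NK cells passed the test. Of 15 members 14 were measured, 11 were higher and 3 lower with TRBV29, with a median log2 ratio of 0.29 beside -0.00065 over all genes, and 5 were higher in both libraries (22.7% of all genes were). Other αβ T cells had the same counts, 11 higher and 3 lower of 14, with a median of 0.26. An edgeR unadjusted p under 0.05, in either direction, was reached by 5 of 14 members in iNKT-type cells (3.01% of all genes). In other αβ T cells 3 of 14 reached it (5.02% of all genes). Klra3, a Ly49 receptor, stood at 26.6 and 30.1 CPM with TRBV13 and at 40.9 and 83.1 CPM with TRBV29 (log2 1.15 ± 0.27, edgeR adjusted p = 0.419). Within the HFD library its ratio was 1.54 (0.84 to 2.71) and within the HDCA library 2.76 (1.88 to 4.04). Klra7, named after its values were seen, stood at 68.6 and 65.9 CPM (HFD library) and at 75.6 and 185 CPM in the HDCA library. Klrk1 and Klrd1, abundant members, had log2 ratios of 0.05 ± 0.15 and 0.08 ± 0.13. Ly49 genes are close copies of each other, so UMIs can be split between them.

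Genes of the cell cycle did not separate the classes in the same way in both libraries. Mki67, a marker of dividing cells, stood at 63.3 CPM with TRBV13 and 2.27 CPM with TRBV29 in the HFD library, and at 94.9 and 107 CPM in the HDCA library. Of the 10 members, 4 had no UMI in the TRBV29 cells of the HFD library. None of the 10 passed the test, 3 were higher and 7 lower. Genes of tissue residency and exit also stayed near equality, with 6 of 15 higher, 9 lower, none called and a median of -0.04; Cxcr6, a receptor that holds T cells in liver sinusoids, stood at 696 and 770.1 CPM against 850 and 589 CPM. Of the 7 myeloid markers, the sum was 31.9 and 326 CPM with TRBV13 and 59.1 and 41.6 CPM with TRBV29, and hepatocyte markers summed to at most 1.25 CPM.

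Each class was then read across the 2 diets, with 1 library each and no test. Dividing the HDCA level by the HFD level gave 0.94 for Tbx21 in TRBV13 cells (0.83 to 1.06), and 0.93 in TRBV29 cells (0.72 to 1.21). Gzma was 14.9 times as high with HDCA in TRBV13 cells (10.5 to 22.0) and 4.88 times in TRBV29 cells (1.89 to 16.0). In the same TRBV13 sums 1 cell held 33.1% of the Gzma UMIs with HDCA, the NK cell markers went from 1.18 to 51.4 CPM and the myeloid markers from 31.9 to 326 CPM; their part in the ratio was not tested. Isg15 had ratios of 1.21 (1.01 to 1.44) and 1.27 (0.77 to 2.13). The intervals of Tbx21 spanned 1 in both classes and that of Isg15 spanned 1 in TRBV29 cells, where the ratio was 0.745 with cells thinned to 2000 UMIs.

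Other genes went apart. Plac8 had a ratio of 2.38 in TRBV13 cells (1.98 to 2.89) and 0.66 in TRBV29 cells (0.45 to 0.97). The TRBV13 sums are those in which the NK cell and myeloid markers rose with HDCA, and their part in the Plac8 ratio was not tested. Il4 had ratios of 1.07 (0.88 to 1.30) and 0.44 (0.27 to 0.69), and Icos, a costimulatory receptor, of 1.04 (0.85 to 1.26) and 0.62 (0.43 to 0.91). Gm20400 had ratios of 0.45 (0.33 to 0.60) and 0.88 (0.66 to 1.17). The intervals of the 2 classes did not overlap for Plac8, Il4 and Gm20400, and overlapped for Icos. Whether the classes differ in these ratios was not tested. Of the type 2 list, 5 of 12 genes were higher with HDCA in TRBV13 cells and 4 of 12 in TRBV29 cells, and of the interferon list 11 of 11 and 3 of 11, beside 4793 and 4322 of 8809 genes tested. Of the cell cycle list, 6 of 10 were higher with HDCA in TRBV13 cells and 10 of 10 in TRBV29 cells. In the TRBV29 cells of the HFD library, 4 of these 10 were at 0.

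Among other αβ T cells the same comparison of segments gave 25 called genes of 10096 tested (0.248%), 5 higher and 20 lower with TRBV29, and 507 genes (5.02%) had an unadjusted p under 0.05. For 14 of the 25, 1 cell held at least 50% of the UMIs, and 8 were immunoglobulin genes. Gm20400 was called there and in iNKT-type cells. Cd4 was lower with TRBV29 in these cells, at 81.5 and 83.3 CPM against 25.3 and 37.6 CPM (log2 -1.31 ± 0.21, edgeR adjusted p = 0.0110). The other 2 coreceptor genes, Cd8a and Cd8b1, were higher with TRBV29 in both libraries and were not called. All 3 coreceptor genes had an edgeR unadjusted p under 0.05. Whether the classes of these cells differ in their mix of CD4 and CD8 cells was not tested. In iNKT-type cells the log2 ratio of Cd4 was 0.31 ± 0.27, and the difference between the cell types had an edgeR adjusted p of 0.354. A test of that difference over 10923 genes called 2 genes (0.0183%), S100a6 and Ccr9, and 407 genes (3.73%) had an unadjusted p under 0.05. The sums of other αβ T cells count every kept cell of a clonotype. By TCR contigs, TRBV13 held 558 cells in 422 clonotypes (HFD library) and 613 in 520 (HDCA library). TRBV29 held 71 in 67 and 108 in 99. The setting with 1 cell per clonotype was run for iNKT-type cells only, so the part of clone size in these calls was not tested.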

How the data were processed

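The RNA files hold UMI counts per gene and barcode as deposited, made with Cell Ranger 8.0.1 per the file headers, for 33696 genes. The TCR files hold counts of UMIs and reads per contig as deposited, all marked productive. The submitters' processing notes name both mm10 and GRCm39, so no coordinates are printed. The libraries held 44332213 UMIs (WT HFD) and 70776925 (WT HFD+HDCA).

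Cells with at least 200 genes, under 10% mitochondrial UMIs and no doublet call (Scrublet in scanpy 1.11.5) were kept, 6196 and 9668 cells. Sums of UMI counts over the cells of a class in a library were tested with edgeR 4.0.16 (TMM scaling, quasi-likelihood, library as a block, Benjamini-Hochberg adjustment over all genes, Trbv genes left out because the segment defined the classes). The block pairs the classes because both come from the same library, that is, the same mice and diet. DESeq2 1.42.0 and other settings were alternatives. The SE printed with a gene's log2 ratio was derived from the edgeR test, as the absolute ratio divided by the square root of the F statistic. The fit was also run on simulated sums. These held no single cells rich in a gene, so they do not test calls that rest on 1 cell. Ratios carry exact conditional and shares exact Clopper-Pearson 95% intervals, and a count of 0 is given the limit of 3 counts. All cover counting error only.

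Genes were named by a rule: called genes that went the same way in both libraries, gene models left out, then the 10 next by p, a fixed set of subset genes, and up to 4 abundant members of a list. Called genes outside it were named as well. V and J parts of a CDR3 are the letters shared with the end carried by at least 50% of clonotypes of a segment. The members, lists and rules were chosen with earlier results of these data known. Some genes of the lists are not reported here.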

Additional observations from a re-analysis of the deposited data

Results flagged for a closer look

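S100a6 and Ccr9 stood out because their TRBV29 to TRBV13 ratio differed between iNKT-type cells and other αβ T cells in edgeR's test of the difference itself. Both were named after their values were seen.

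S100a6, a calcium-binding protein of effector and memory T cells, had 1045 and 909 CPM with TRBV13 and 1004 and 1181 CPM with TRBV29 in iNKT-type cells of the HFD and HDCA libraries, so the classes overlapped. In other αβ T cells it had 1016 and 738 CPM with TRBV13 and 432 and 403 CPM with TRBV29. The difference of the log2 ratios was 1.15 ± 0.18 (SE, edgeR adjusted p = 0.0284), and the gap lay in the other αβ T cells. Without the library block the edgeR adjusted p was 0.979, and the call held under the other 4 alternatives.

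Ccr9, a chemokine receptor of gut-homing T cells, had 39.6 and 56.0 CPM with TRBV13 and 36.3 and 22.5 CPM with TRBV29 in iNKT-type cells. In other αβ T cells it had 11.1 and 9.75 CPM with TRBV13 and 32.5 and 51.6 CPM with TRBV29, from 9 and 14 cells. The difference of the log2 ratios was -2.84 ± 0.44 (edgeR adjusted p = 0.0284). This call was lost with library size alone (edgeR adjusted p = 0.118), with DESeq2 and without the library block (edgeR adjusted p = 0.339), and over all 5 alternatives the ratio ran from -2.87 to -2.77.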

How the results depend on the processing

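The count of 8 genes called in iNKT-type cells became 17 with library size alone, 1 with DESeq2, 20 with genes of at least 10 UMIs, 13 against TRBV13-2 alone, 28 with all barcodes, 16 with TRB contigs of at least 3 UMIs, 1 with cells thinned to 2000 UMIs, 2 with exactly 1 TRA contig and 4 without cells that carry B cell UMIs, the last chosen after seeing the data. The count of 25 in other αβ T cells became 6 with DESeq2, 100 with at least 10 UMIs and 48 with at least 200 UMIs. The 2 calls of the difference became 1 with library size alone, 1 with DESeq2 and 24 with at least 10 UMIs. Without the replicate block, which pairs the classes within a library, edgeR called 0 genes in each of the 3 comparisons, with 295, 566 and 469 genes at an unadjusted p under 0.05. Leaving out a library leaves no test for the counts.

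The type 1 median was 0.025 with 1 cell per clonotype, 0.12 when thinned and -0.011 to 0.025 with 1 library left out. The type 2 median was -0.060 with at least 200 UMIs, -0.044 against TRBV13-2 and -0.17 to -0.052 with 1 library left out. The TCR signal median was -0.017 with at least 200 UMIs, 0.037 with 1 cell per clonotype, 0.011 against TRBV13-2 and 0.16 when thinned. The interferon median ran from -0.78 without the HFD library to 0.023 without the HDCA library. When thinned, the Isg15 diet ratio in TRBV29 cells was 0.745.

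Log2 ratios changed sign for Cd74 with all barcodes (-0.26) and without the richest cells (-0.95), and for Cd79a without the richest cells (-1.11). Uncalled genes changed sign too, among them Il4, at -0.32 in the fit as reported. Without the richest cells these were Icos (-0.043), Ifng (0.019), Trbc1 (-0.12) and Trbc2 (-0.040). Against TRBV13-2 these were Zbtb16 (0.055), Cd44 (0.014) and Trbc2 (-0.059). With at least 3 TRB UMIs they were Zbtb16 (0.010) and Cd44 (0.0010). When thinned they were Zbtb16 (0.035), Il4 (0.034), Cd5 (0.20), Cd44 (0.26) and Trbc1 (-0.030). With 1 TRA contig they were Gata3 (0.015), Cd44 (0.00044) and Trbc1 (-0.033). With all barcodes they were Ifng (0.033), Trbc1 (-0.010) and Trbc2 (-0.015), with at least 10 UMIs Trbc1 (-0.0059), and without B cell UMIs Klrb1c (-0.053). The cause was not tested. Shares of TRBV and TRBJ segments and CDR3 lengths moved by less than their intervals or SD under the alternatives run.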

Other observations

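A further 63 iNKT-type cells used TRBV1, 24 in the HFD and 39 in the HDCA library, with 1 clonotype per cell. Their TRB contigs had a median of 28.5 and 22 UMIs, above the TRBV13 medians of 16 and 15, while their TRA contigs had 5 and 4. Their CDR3 β averaged 14.59 ± 1.59 amino acids (SD, 63 clonotypes). Residue 5 was alanine in 85.7% of TRBV1 clonotypes, against 6.43% with TRBV13 and 2.33% with TRBV29. Gm20400 stood at 30.2 and 21.1 CPM in TRBV1 cells.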
